A study of Homo sapiens with 4 samples.

Results

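The genes described here are the long intergenic noncoding RNA genes that carry a LINC symbol, the placeholder name that the human gene nomenclature gives to a long noncoding RNA (lncRNA) lying apart from other genes and having no established function at the time of naming. Members were all genes with the biotype lncRNA and a name of LINC followed by a digit in the deposited expression table, with the values of a gene's listed transcripts summed. The rule took 212 genes, with 473 transcripts, of the 16371 genes listed. The table held 1840 other lncRNA genes and 13456 protein-coding genes. A further 10 genes with a LINC name but another biotype fell outside the rule, as did LINC-PINT and the lncRNAs that have lost their LINC number to a proper name, such as NORAD and CYTOR.

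The measurements came from A549, an established human lung adenocarcinoma cell line, collected as cell clusters and sequenced as RNA. In the control group, shMock, the cells carried a control construct and had the genotype label wild type. In the other group, shDUSP23, they carried a short hairpin RNA construct that lowers DUSP23, which encodes a small dual-specificity phosphatase. Each group had 2 libraries, and the sample titles of both groups carry the suffix SUS, which the labels do not explain. The number of hairpins or clones is not given in the sources used here, nor whether the replicates were separate cultures, so p-values cover no more than the variation among these 4 libraries. The comparison addresses which LINC genes differ when DUSP23 is lowered.

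LncRNAs are transcribed by RNA polymerase II, capped, mostly spliced and mostly polyadenylated, like messenger RNAs, but are not translated into a known protein. They are usually less abundant than messenger RNAs, have fewer exons and are expressed in fewer tissues. Some act on neighbouring genes, some bind proteins or microRNAs elsewhere in the cell, and for many no role is established.

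The sequences below show the start regions of the members that the results turn on, together with the end of the most strongly induced abundant member. Promoter windows were taken from RefSeq on GRCh38.p14 and run from 250 bases before to 50 bases after an annotated start. For the 7 LINC genes and BTG2 shown, capitals mark matches, on either strand, to any of 8 short motifs. The motifs were the AP-1 site TGANTCA, the cAMP response element TGACGTCA, the interferon-type core (a pair of TTTC runs with 2 free bases between them), the TEAD site GGAATG, the TATA box TATAAA, the CCAAT box CCAAT, the NRF2-type core TGACNNNGC and the E-box CACGTG. The first 5 are the rising members whose window held an AP-1 site.
LINC00513: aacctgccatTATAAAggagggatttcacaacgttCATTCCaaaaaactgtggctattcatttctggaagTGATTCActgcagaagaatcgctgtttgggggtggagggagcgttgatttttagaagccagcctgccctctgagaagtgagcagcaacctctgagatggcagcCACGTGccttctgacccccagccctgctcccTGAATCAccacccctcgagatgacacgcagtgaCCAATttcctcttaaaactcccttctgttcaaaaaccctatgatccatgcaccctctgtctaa
LINC00963: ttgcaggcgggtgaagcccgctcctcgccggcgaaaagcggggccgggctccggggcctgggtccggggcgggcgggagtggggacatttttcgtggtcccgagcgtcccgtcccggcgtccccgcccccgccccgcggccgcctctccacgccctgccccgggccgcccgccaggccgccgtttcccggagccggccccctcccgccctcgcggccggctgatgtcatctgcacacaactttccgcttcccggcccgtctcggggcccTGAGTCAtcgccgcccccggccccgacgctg
LINC00973: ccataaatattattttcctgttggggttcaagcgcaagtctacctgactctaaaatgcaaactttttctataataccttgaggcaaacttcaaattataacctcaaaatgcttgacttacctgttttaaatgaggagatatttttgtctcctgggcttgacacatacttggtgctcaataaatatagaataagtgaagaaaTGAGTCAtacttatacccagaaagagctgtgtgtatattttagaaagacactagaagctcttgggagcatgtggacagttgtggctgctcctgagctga
LINC01358: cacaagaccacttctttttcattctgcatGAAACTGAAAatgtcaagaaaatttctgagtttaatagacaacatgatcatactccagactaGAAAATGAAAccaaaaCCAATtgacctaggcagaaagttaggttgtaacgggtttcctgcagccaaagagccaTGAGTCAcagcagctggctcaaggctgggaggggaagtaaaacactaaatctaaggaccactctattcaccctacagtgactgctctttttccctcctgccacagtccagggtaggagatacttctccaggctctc
LINC02709: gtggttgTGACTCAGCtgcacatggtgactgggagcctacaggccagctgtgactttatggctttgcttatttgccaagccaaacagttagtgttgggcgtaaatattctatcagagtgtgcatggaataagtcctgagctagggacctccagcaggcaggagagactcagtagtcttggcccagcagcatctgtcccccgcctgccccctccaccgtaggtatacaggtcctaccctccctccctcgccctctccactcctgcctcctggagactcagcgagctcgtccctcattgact
LINC00303, the largest rise, held none of the motifs: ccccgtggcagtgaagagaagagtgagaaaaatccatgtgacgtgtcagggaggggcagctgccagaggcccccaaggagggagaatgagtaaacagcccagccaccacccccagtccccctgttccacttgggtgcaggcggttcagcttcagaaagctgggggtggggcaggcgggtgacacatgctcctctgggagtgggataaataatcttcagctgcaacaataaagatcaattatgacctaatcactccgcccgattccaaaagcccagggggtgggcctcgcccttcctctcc
LINC01433, the largest fall: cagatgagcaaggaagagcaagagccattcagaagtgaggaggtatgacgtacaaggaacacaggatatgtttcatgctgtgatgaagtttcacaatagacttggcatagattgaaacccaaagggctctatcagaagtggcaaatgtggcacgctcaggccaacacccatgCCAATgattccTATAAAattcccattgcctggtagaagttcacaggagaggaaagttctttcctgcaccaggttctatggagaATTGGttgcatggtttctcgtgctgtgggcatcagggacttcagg
BTG2, whose window also spans the start of the divergent LINC01136: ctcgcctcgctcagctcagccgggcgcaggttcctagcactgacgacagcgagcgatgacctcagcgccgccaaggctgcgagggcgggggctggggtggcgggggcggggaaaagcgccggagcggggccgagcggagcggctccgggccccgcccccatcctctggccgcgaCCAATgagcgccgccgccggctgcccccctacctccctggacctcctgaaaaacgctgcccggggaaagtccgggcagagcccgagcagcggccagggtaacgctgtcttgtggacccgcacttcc
These windows lie at chr7:130913214-130913513 (LINC00513), chr9:129488410-129488709 (LINC00963), chr3:98980805-98981104 (LINC00973), chr1:59020226-59020525 (LINC01358), chr20:4192840-4193139 (LINC01433) and chr1:203305269-203305568 (BTG2) on the plus strand, and at chr11:9759484-9759783 (LINC02709) and chr1:204041216-204041515 (LINC00303) on the minus strand. LINC00520 had no entry in the promoter table. For this gene the last 150 bases of its most abundant listed transcript, LINC00520-211, are given from GENCODE release 29, with the polyadenylation hexamer in capitals.
LINC00520-211: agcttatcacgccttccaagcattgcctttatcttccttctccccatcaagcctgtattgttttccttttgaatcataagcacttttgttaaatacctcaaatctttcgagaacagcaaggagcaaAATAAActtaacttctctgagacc

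The deposited values were FPKM, fragments scaled by the kilobases of the transcript and the size of the library. Low values lay on steps of 1 fragment, from which depths of 21274700 and 25243700 fragments (shMock) and 26997400 and 42236500 fragments (shDUSP23) followed. A single fragment on a transcript of 1 kb was therefore worth 0.047, 0.040, 0.037 and 0.024 FPKM. The deepest library, shDUSP23 replicate 2, also had the most transcripts listed at 0, 9946 against 2930 to 4814 in the others. DUSP23 itself stood at 29.96 and 35.9 FPKM in shMock and at 1.71 and 2.71 in shDUSP23 (log2 fold change -3.64, SE 0.22). All 5 epithelial markers were listed, and their sum was 2154 and 2111 FPKM in shMock and 1634 and 1716 in shDUSP23. Of the other marker lists, 1 of 5 alveolar type II genes (NAPSA, with SFTPA1, SFTPB, SFTPC and NKX2-1 not listed), 0 of 3 endothelial genes and 1 of 4 fibroblast genes (COL1A1) were listed. Of the immune markers 2 of 5 were listed, CD14 and CD68, with PTPRC, CD3E and LYZ not listed. The sum of CD14 and CD68 was 29.1 and 31.5 FPKM in shMock and 95.9 and 132 in shDUSP23, and the part of these marker differences in the LINC results was not tested.

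More LINC genes were higher than lower in the shDUSP23 clusters. Of the 125 members with a mean of at least 1 FPKM, 40 (32%) were higher and 7 (5.6%) lower, and 78 were not called. Among all 13691 genes tested in the same way, 23.1% were higher and 22.2% lower. Of the 40 rises 9 were among 11 members that reached 1 FPKM through the shDUSP23 libraries alone and so had to differ, as were 295 of the 3166 rises over all genes. Among the 112 members that reached 1 FPKM in both groups, 31 were higher (27.7%) and 7 lower (6.25%). The shares were 22.3% and 22.3% over all such genes, and 23.5% and 8.8% over other lncRNA genes. A call is a Benjamini-Hochberg adjusted p under 0.05 over all genes tested, from limma on log2(FPKM + 0.5), and fold changes are shDUSP23 minus shMock on that scale, where low genes show less than their true fold. The median log2 fold change was 0.29 over the tested LINC genes and 0.03 over all tested genes, and 80 LINC genes had a positive and 45 a negative value. At least a 2-fold change was reached by 29 of the members called higher and by 4 of those called lower, against 9.36% higher and 8.91% lower over all tested genes. All 9 rises that reached 1 FPKM through the shDUSP23 libraries alone are among the 29. The median, the counts by sign and the 2-fold counts were not recomputed without such members. The other lncRNA genes lay between LINC genes and all genes, with 255 of 979 higher (26.0%), 95 lower (9.7%) and a median of 0.25. Of 12052 protein-coding genes, 23.1% were higher and 23.6% lower, with a median of 0.01. The direction of all genes depends on scaling: when the libraries were rescaled to equal FPKM sums, the share of higher genes among all genes called moved from 51.0% to 75.7% and the median of all genes from 0.03 to 0.34. Under that scaling 52 LINC genes of 129 were higher (40.3%) and 4 lower (3.1%), with a median of 0.63, while 38.4% of all genes were higher and 12.3% lower. The share of rises among LINC genes was then close to that of all genes. Leaving out shMock replicate 1 left 26 of 133 higher (19.5%, against 15.4% of all genes) and 2 lower (1.5%, against 14.0%). Leaving out shMock replicate 2 left 24 of 137 higher (17.5%, against 12.6%) and 0 lower (against 12.7%), with 5 lower at an unadjusted limma p under 0.05. Without shDUSP23 replicate 1, 42 members of 122 were higher (34.4%, against 23.8%) and 13 lower (10.7%, against 23.6%).

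**Figure D1:**
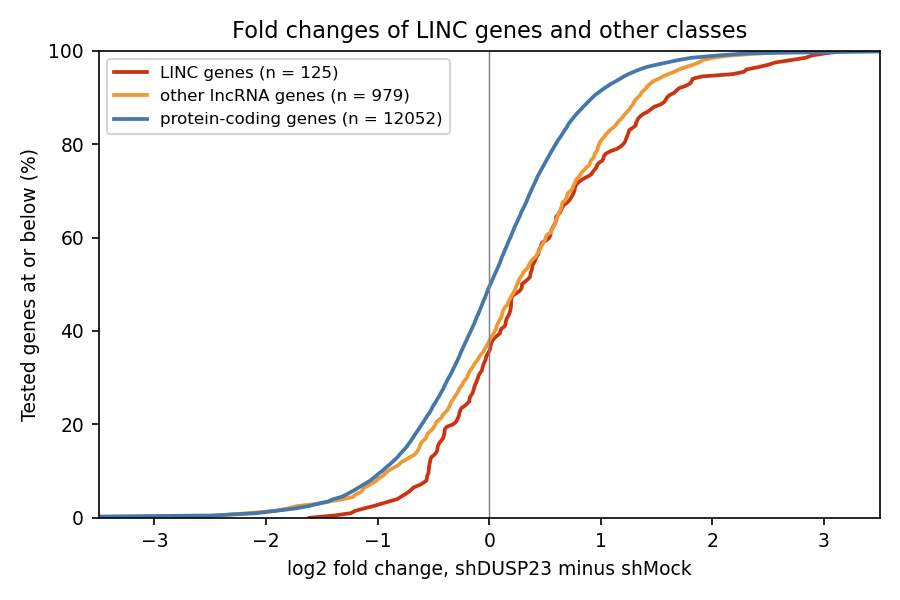
Share of tested genes (vertical axis, %) at or below each log2 fold change, shDUSP23 minus shMock (horizontal axis), for 125 LINC genes, 979 other lncRNA genes and 12052 protein-coding genes. The LINC curve lies to the right of the protein-coding curve over most of its range, with medians of 0.29 and 0.01. Of the 125 LINC genes, 11 reached 1 FPKM through the shDUSP23 libraries alone and so had to differ.

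The 2 groups of libraries did not overlap for 60 tested LINC genes with higher shDUSP23 values and for 20 with lower ones, against 39.3% and 36.2% of all genes tested. Among the 16 members with a mean of at least 10 FPKM, 9 were higher and 0 lower. Between 5 and 10 FPKM 8 of 19 were higher and 1 lower, between 2 and 5 FPKM 17 of 55 were higher and 5 lower, and between 1 and 2 FPKM 6 of 35 were higher and 1 lower. Of the rises between 1 and 2 FPKM 5 of the 6, and of those between 2 and 5 FPKM 4 of the 17, were members that passed the filter through the shDUSP23 libraries alone. A further 2 members passed through the shMock libraries alone, and neither was called. Shares of all genes within each of these ranges were not computed. In a separate fit of genes at 5 FPKM or more, 26.0% of all genes were higher and 27.9% lower, against 48.6% and 5.7% of 35 LINC genes.

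The summed level of all 212 LINC genes was 591 and 613 FPKM under shMock and 938 and 905 FPKM under shDUSP23. Both shDUSP23 sums lay above both shMock sums. Of the total listed FPKM, which was itself lower in shDUSP23, the LINC genes made up 0.109% and 0.106% in shMock and 0.214% and 0.202% in shDUSP23. LINC00520 alone supplied 26.6% of the difference in summed FPKM, LINC00963 10.9% and LINC00511 8.13%. Without LINC00520 the sums were 581 and 596 against 840 and 806 FPKM. The difference was not confined to these 3 members: the others together had 533 and 558 FPKM in shMock and 731 and 707 in shDUSP23. The median tested LINC gene stood at 2.43 and 2.44 FPKM in shMock and at 3.54 and 3.55 in shDUSP23. For all tested genes the median was 11.0 and 10.7 against 11.1 and 11.2. Of the 125 tested members 11 passed the filter through shDUSP23 alone, and so had to differ in this direction, against 529 of 13691 genes. The median without them was not computed. The number of LINC genes at 10 FPKM or more was 11 and 14 in shMock and 16 and 18 in shDUSP23.

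**Figure D2:**
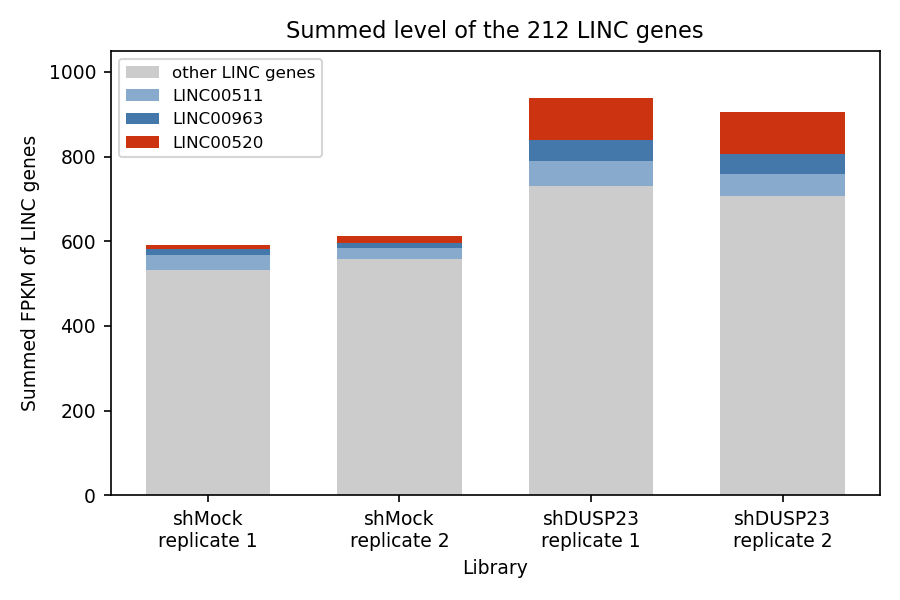
Summed FPKM of the 212 LINC genes (vertical axis) in each library, with LINC00520, LINC00963 and LINC00511 in colour and the other members in grey. Both shDUSP23 bars, 938 and 905 FPKM, are above the shMock bars at 591 and 613, and the grey part is also taller.

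LINC00520 was the member with the largest gain in level. This lncRNA, on chromosome 14 (GRCh38, 55781132 to 55796731, minus strand), has been reported downstream of Src, PI3K and STAT3 signalling in breast cancer cells. The controls had 10.5 and 17.4 FPKM of it, the shDUSP23 libraries 98.9 and 98.7. The shDUSP23 values were almost equal and lay far above both controls (log2 fold change 2.82, SE 0.21, limma adjusted p = 5.13e-05). In fragments it was 184 and 285 against 2018 and 3175. Of its 6 listed transcripts 5 were higher in both shDUSP23 libraries than in either control. The main one, LINC00520-211, whose last bases are printed above, had 5.92 and 11.5 FPKM in shMock and 41.9 and 56.3 in shDUSP23. LINC00520-205 had 1.11 and 1.77 against 27.4 and 14.3 FPKM, and LINC00520-209 had 1.11 and 1.46 against 15.1 and 18.5. The other transcript, LINC00520-210, overlapped between the groups at 1.91 and 0.86 against 3.77 and 0 FPKM.

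LINC00963, on chromosome 9 (129483451 to 129513686, plus strand), has been studied in prostate cancer progression. Its level was 13.8 and 12.7 FPKM in shMock and 49.0 and 46.9 in shDUSP23 (log2 fold change 1.82, SE 0.13, limma adjusted p = 5.08e-05). All shDUSP23 values exceeded all shMock values, and 10 of its 16 listed transcripts did so individually. LINC00963-202 went from 2.95 and 3.15 to 8.96 and 8.14 FPKM, and LINC00963-257 from 0 and 0.68 to 7.98 and 7.32. How reads were divided among transcripts is not given in the sources used here, so single transcripts of such genes are less certain than the sums.

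LINC00303 had the largest fold change of the members on the log2(FPKM + 0.5) scale, where lower genes such as LINC01115 show less than their ratio of FPKM. This gene lies on chromosome 1 (204032447 to 204041265, minus strand), and its promoter window held none of the 8 motifs. Its level was 0.35 and 0.34 FPKM in shMock and 6.31 and 8.45 in shDUSP23 (log2 fold change 3.21, SE 0.28, limma adjusted p = 0.00011). These values correspond to 14 and 16 fragments against 322 and 675. The gene was close to silent in the controls and moderately expressed in both shDUSP23 libraries. It reached 1 FPKM through the shDUSP23 libraries alone and so had to differ.

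LINC00513, on chromosome 7 (130853720 to 130928649, plus strand), has been described as a regulator of interferon signalling linked to lupus. It stood at 0.17 and 0.81 FPKM in shMock and at 6.20 and 7.04 in shDUSP23 (log2 fold change 2.92, SE 0.35). Both of its listed transcripts showed the same separation of the groups. LINC01136, on chromosome 1 (203298758 to 203305309, minus strand), stood at 0.06 and 0.09 FPKM in shMock and at 2.56 and 3.33 in shDUSP23 (log2 fold change 2.58, SE 0.35). It had 9 fragments in the 2 shMock libraries together and 247 in the 2 shDUSP23 libraries, a ratio of rates of 18.4 (exact 95% interval 9.56 to 40.8, for counting error only). LINC00513 and LINC01136 both reached 1 FPKM through the shDUSP23 libraries alone and so had to differ. The interval takes no account of this.

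LINC01115, on chromosome 2 (739588 to 740164, minus strand), was all but absent from the controls, with 1 and 0 fragments against 39 and 45. The ratio of its fragment rates was 56.4 with an exact 95% interval of 9.86 to 2255, for counting error only. In FPKM it was 0.08 and 0 against 2.50 and 1.85, and its fitted log2 fold change of 2.30 was 1.60 with a pseudocount of 1 FPKM, 4.06 with 0.1 FPKM and 5.04 in limma-voom on fragments. LINC01181 stood at 0.51 and 0.93 FPKM in shMock and at 9.59 and 3.88 in shDUSP23 (log2 fold change 2.47, SE 0.41). Its shDUSP23 libraries differed from each other more than those of the members above. Both exceeded the controls, which was a condition for choosing the largest rises. LINC01115 and LINC01181 reached 1 FPKM through the shDUSP23 libraries alone and so had to differ. The interval for LINC01115 takes no account of this.

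LINC02154, on the X chromosome (13266048 to 13303452, minus strand), had 1.42 and 1.49 FPKM in shMock and 8.33 and 9.58 in shDUSP23 (log2 fold change 2.27, SE 0.22). LINC02709, on chromosome 11 (9754770 to 9759533, minus strand), had 0.87 and 0.75 against 4.07 and 4.03 FPKM (log2 fold change 1.79, SE 0.27). The libraries of each group lay close together in both genes. When only the most abundant transcript was used, LINC02709 was no longer called (log2 fold change 1.02, limma adjusted p = 0.082). LINC01358, on chromosome 1 (58933643 to 59240555, plus strand), had 0.42 and 0.35 against 1.72 and 3.19 FPKM (log2 fold change 1.69, SE 0.37, limma adjusted p = 0.0064), and without shMock replicate 2 its value of 1.64 was not called (limma adjusted p = 0.054). No role is stated here for these 3 lncRNAs. LINC02709 and LINC01358 reached 1 FPKM through the shDUSP23 libraries alone and so had to differ.

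**Figure D3:**
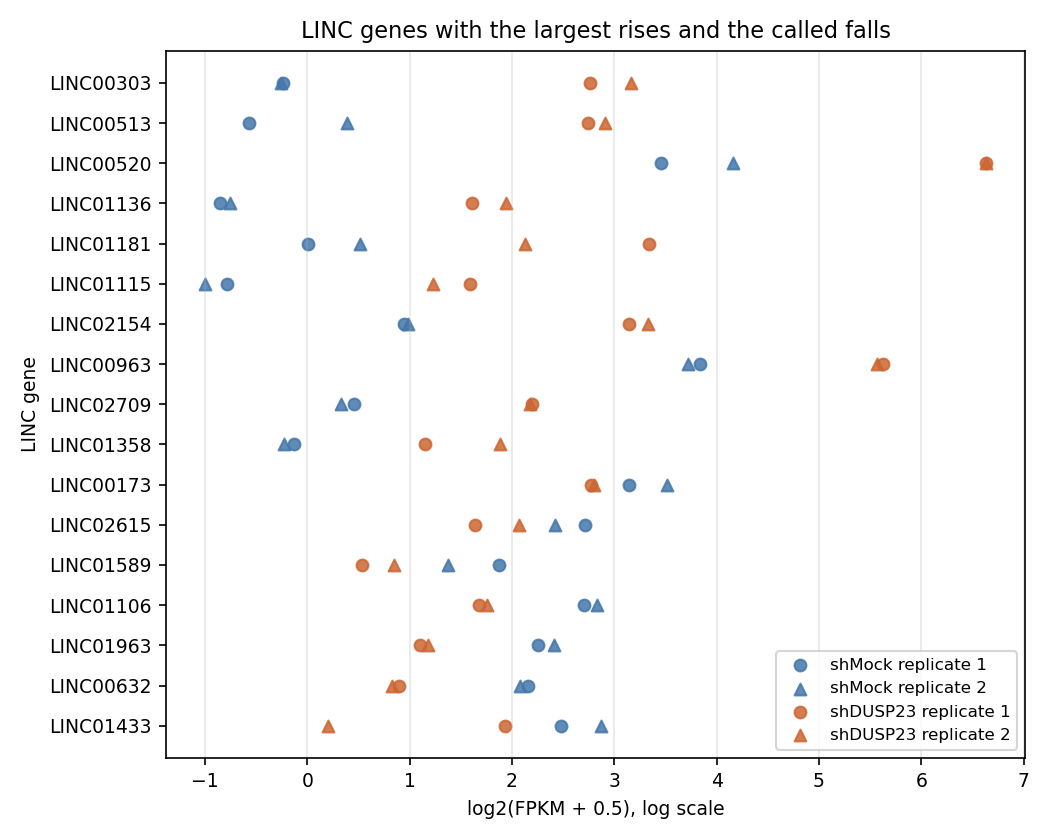
Level as log2(FPKM + 0.5) (horizontal axis) of the 10 LINC genes with the largest rise and the 7 called lower, 1 point per library, with colour for the group and shape for the replicate. The shMock and shDUSP23 points do not overlap in any gene shown, because this was a condition for choosing them. LINC00520 and LINC00963 are the most abundant of them.

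The other 30 members called higher had log2 fold changes from 0.55 (LINC00174) to 1.67 (LINC00707). LINC00707, studied in lung adenocarcinoma and located on chromosome 10 (6779549 to 6879450, plus strand), had 5.07 and 4.40 FPKM in shMock and 15.9 and 16.3 in shDUSP23, and all 5 of its listed transcripts separated the groups. LINC01539 had 1.82 and 1.33 against 6.22 and 5.17 FPKM. LINC02701 had 2.43 and 2.13 against 6.59 and 8.93, and LINC01006, which overlaps the coding gene RNF32 on the opposite strand, 7.16 and 5.54 against 17.8 and 15.2. Whether the reads were assigned by strand is not given in the sources used here, so overlapping genes such as LINC01006 and RNF32 cannot be told apart with certainty. The last 3 genes and others outside the naming rule were chosen as examples after their values were seen. Of the 40 members called higher, 16 were called in every one of the alternatives in which they could be tested. They were LINC00303, LINC00513, LINC00520, LINC01136, LINC01181, LINC01115, LINC02154, LINC00963, LINC00707, LINC01816, LINC01539, LINC02701, LINC02604, LINC00265, LINC02593 and LINC00511. Of these, LINC00303, LINC00513, LINC01136, LINC01181 and LINC01115 reached 1 FPKM through the shDUSP23 libraries alone and so had to differ. Not every member could be tested in all 19 alternatives, and LINC01136 was run in 16 and LINC01115 in 15.

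The 7 members called lower had log2 fold changes from -0.54 to -1.61. LINC01433, on chromosome 20 (4193065 to 4195943, plus strand), had 5.09 and 6.79 FPKM in shMock and 3.31 and 0.65 in shDUSP23 (log2 fold change -1.61, SE 0.49, limma adjusted p = 0.027). Its shDUSP23 libraries were far apart, and the value was -2.48 without shDUSP23 replicate 1 and -0.75 without replicate 2. LINC01433 was not called without shMock replicate 1 (-1.80) or without shMock replicate 2 (-1.42), nor with eBayes without a trend, robust eBayes or the most abundant transcript of each gene (limma adjusted p = 0.067, 0.079 and 0.10). LINC00632, on the X chromosome (140709562 to 140793215, plus strand), is the host transcript of the circular RNA CDR1as, which binds the microRNA miR-7. It had 3.97 and 3.72 FPKM in shMock and 1.36 and 1.28 in shDUSP23 (log2 fold change -1.25, SE 0.26, limma adjusted p = 0.0048). The groups were well separated, and 5 of its 7 listed transcripts were lower in both shDUSP23 libraries. Without shMock replicate 1 or 2, however, LINC00632 was not called (-1.21 and -1.30, limma adjusted p = 0.065 and 0.057). The circular RNA itself was not measured by these transcripts.

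LINC01963, on chromosome 2 (216217045 to 216220192, plus strand), had 4.29 and 4.81 FPKM in shMock and 1.65 and 1.77 in shDUSP23 (log2 fold change -1.19, SE 0.24), from 287 and 382 fragments against 140 and 235. LINC01106, also on chromosome 2 (110375138 to 110384442, minus strand), had 6.02 and 6.61 against 2.69 and 2.89 FPKM (log2 fold change -1.05, SE 0.21). In both, each group was tight and the groups were apart, but without shMock replicate 2 neither was called (LINC01963 limma adjusted p = 0.072, LINC01106 limma adjusted p = 0.064). On the most abundant transcript alone the log2 fold change of LINC01106 was 0.00072.

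The smallest falls were LINC01589 (3.17 and 2.10 against 0.95 and 1.30 FPKM, log2 fold change -0.94), LINC02615 (6.07 and 4.85 against 2.61 and 3.69, -0.71) and LINC00173 (8.35 and 11.0 against 6.36 and 6.48, -0.54). LINC01589 rested on only 37 and 29 fragments against 14 and 30. Each of the 3 had an adjusted p between 0.039 and 0.049 in limma. LINC01589 lost its call when either shMock replicate (1, -0.69, or 2, -1.19) or shDUSP23 replicate 1 (-0.78) was left out, and in 5 other alternatives, equal sums and limma-voom among them. LINC02615 lost its call without the same libraries, at -0.57, -0.86 and -0.50, and in 5 others, no filter and equal sums among them. LINC00173 lost its call without any 1 library, at -0.73, -0.35, -0.53 and -0.55 for shMock replicates 1 and 2 and shDUSP23 replicates 1 and 2, and in 5 others. LINC01589 and LINC02615 were each called in 10 of the 18 alternatives run on them, and LINC00173 in 10 of 19. None of the 7 falls was called in every alternative in which it could be tested.

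**Figure D4:**
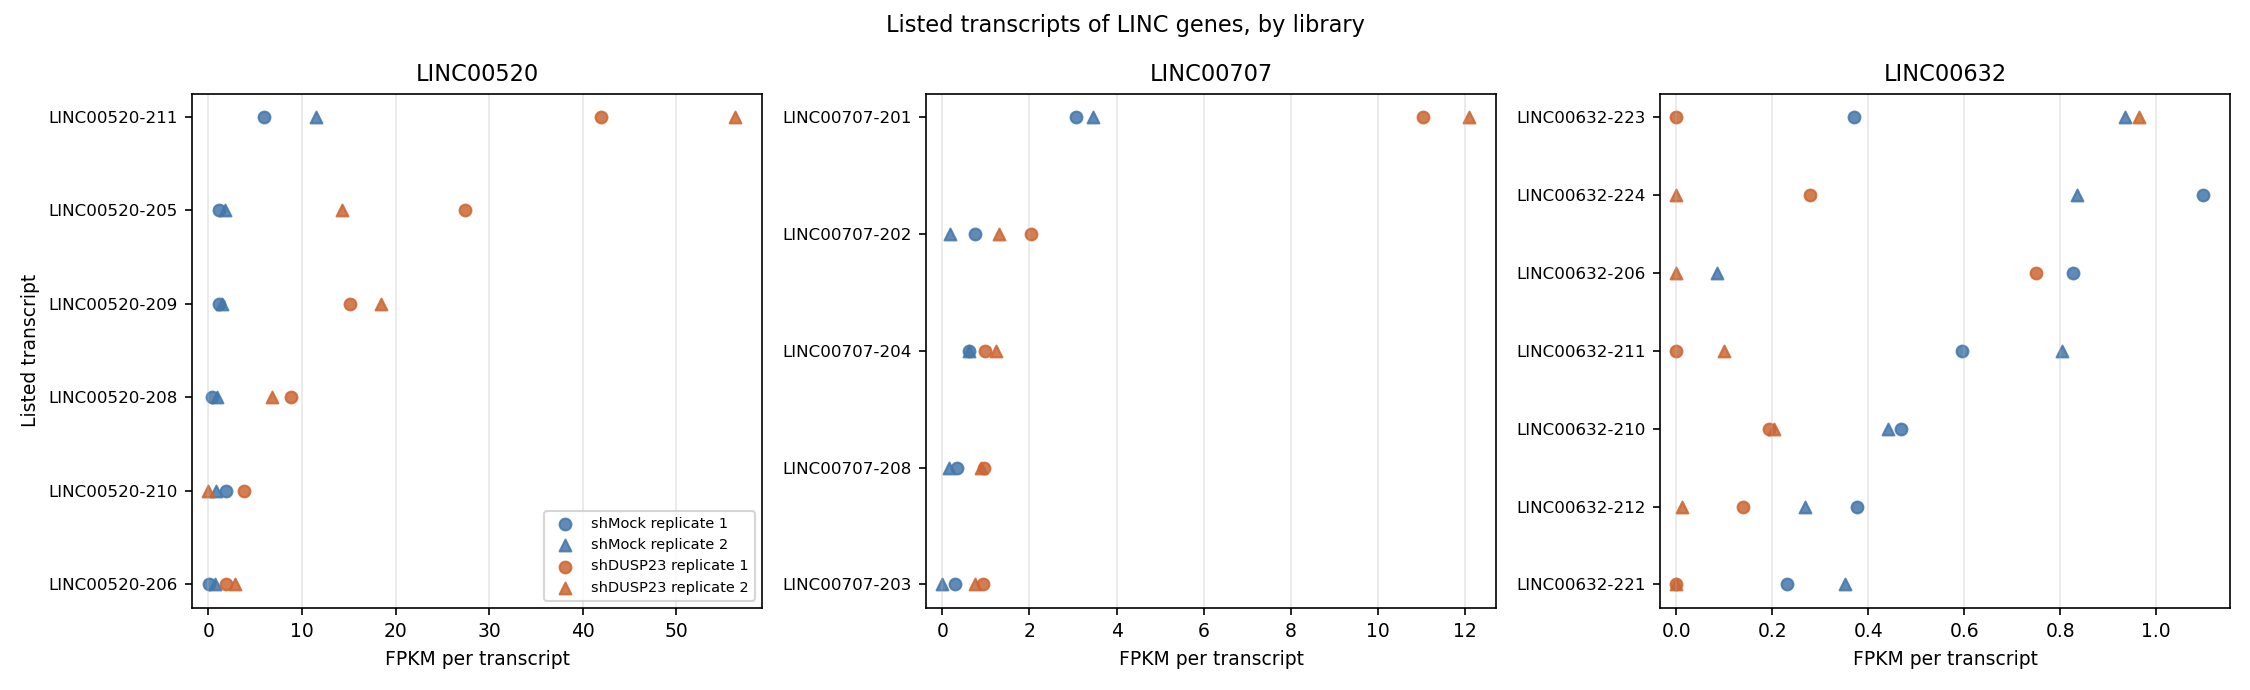
FPKM (horizontal axis) of each listed transcript of LINC00520, LINC00707 and LINC00632, 1 point per library. The shDUSP23 points lie to the right of the shMock points in 5 of 6 transcripts of LINC00520 and 5 of 5 of LINC00707, and to the left in 5 of 7 of LINC00632.

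The most abundant members did not all change. The 5 members with the highest mean were LINC00520, LINC02864, LINC00511, LINC02582 and LINC00963, of which 3 rose. LINC02864 had 44.1 and 49.2 FPKM in shMock and 46.9 and 44.6 in shDUSP23 (log2 fold change -0.03, SE 0.12). LINC02582 had 40.8 and 40.3 against 38.6 and 40.8 FPKM (log2 fold change -0.03, SE 0.12). These 2 neighbours on chromosome 18, on opposite strands and 60.5 kb apart, thus showed no difference beyond the spread of the libraries, although both values turn to 0.31 and 0.30, still not called, with libraries scaled to equal sums. LINC00511, on chromosome 17 (72290091 to 72640472, minus strand), is overexpressed in many carcinomas, including those of the lung. Its level was 33.7 and 25.5 FPKM in shMock and 59.1 and 52.0 in shDUSP23 (log2 fold change 0.91, SE 0.16, limma adjusted p = 0.0023). Only 5 of its 15 listed transcripts separated the groups upwards. LINC00511-230 went the other way, from 1.94 and 2.57 FPKM to 0 in both shDUSP23 libraries.

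A list of LINC genes studied in cancer held 32 names, of which 18 were listed and 16 tested. Of these 7 were higher and 0 lower (2 lower at an unadjusted limma p under 0.05), with a median log2 fold change of 0.45. The counts leave out genes listed under newer names. LINC00152 is listed as CYTOR, which was lower (-1.02), and LINC00657 as NORAD, which was higher (0.55). Other names not found may also have newer ones. Over all tested genes 23.1% were higher and 22.2% lower, and over all tested LINC genes 32% and 5.6%. Without shDUSP23 replicate 1 the list had 5 higher and 4 lower of 15 tested, with a median of 0.10, and limma-voom on fragments gave 6 higher and 3 lower of 14. Without shMock replicate 2 it had 4 higher and 0 lower of 17. Besides LINC00520, LINC00963, LINC00707 and LINC00511, the rises were LINC01116, LINC00467 and LINC00973. LINC01116 had 3.23 and 2.59 FPKM in shMock and 5.94 and 6.01 in shDUSP23 (log2 fold change 0.93), and was not called without shMock replicate 2 (0.80). LINC00467, repressed by N-Myc in neuroblastoma, had 9.75 and 10.6 against 21.7 and 14.4 FPKM (log2 fold change 0.77). Its call was lost without shMock replicate 1 (0.71) or 2 (0.83) or without shDUSP23 replicate 1 (0.48). LINC00973, reported to be induced by chemotherapy drugs in colon cancer cells, had 8.01 and 8.61 against 13.9 and 11.8 FPKM (log2 fold change 0.60). It was not called without the same libraries, at 0.55, 0.65 and 0.49.

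The remaining 9 members of that list were not called. LINC00261, the neighbour of FOXA2, had 2.93 and 4.13 FPKM in shMock and 2.17 and 1.54 in shDUSP23 (log2 fold change -0.77, SE 0.28, limma adjusted p = 0.054). LINC01234 had 11.1 and 13.8 against 9.71 and 7.29 FPKM (log2 fold change -0.53, SE 0.20, limma adjusted p = 0.058). In both genes the groups did not overlap, and each was called lower in some alternatives, such as median-ratio rescaling. LINC00205 had a log2 fold change of -0.40 with SE 0.22 and likewise no overlap. LINC00662 (-0.27, SE 0.19), LINC00847 (-0.27, SE 0.39), LINC00342 (-0.12, SE 0.17), LINC00472 (0.20, SE 0.24), LINC00857 (0.29, SE 0.22) and LINC01503 (0.71, SE 0.43) had differences within about 2 standard errors. The wide error of LINC00847 came from shDUSP23 libraries at 10.7 and 3.62 FPKM.

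In a chosen list of well-known lncRNAs with other names, more were lower than higher. Of 27 tested, 4 were higher and 9 lower, with a median log2 fold change of -0.23. The falls were CYTOR, DANCR, FTX, GAS5, LNCAROD, PURPL, SNHG1, SNHG12 and ZFAS1, and the rises MEG3, MIR22HG, NORAD and NRIR. MALAT1, NEAT1, H19 and PVT1 were among those not called. The counts describe this list and not named lncRNAs in general. Over all tested genes 23.1% were higher and 22.2% lower, and over lncRNA genes without a LINC name 26.0% and 9.7%. With equal sums 7 of the list were higher and 6 lower (median 0.09), against 38.4% and 12.3% of all genes. With GC and length correction 6 were higher and 7 lower (median -0.07). Without shMock replicate 1 or 2 there were 5 and 6 lower, and without shDUSP23 replicate 2 the median was -0.05. SNHG1, a host of small nucleolar RNAs, went from 108 and 115 to 41.5 and 40.4 FPKM (log2 fold change -1.43). GAS5, another such host that rises on growth arrest, went from 324 and 325 to 190 and 148 (-0.95), and CYTOR, formerly LINC00152, from 33.3 and 39.5 to 19.3 and 16.2 (-1.02). MIR22HG, the host of miR-22, rose from 15.1 and 18.8 to 33.9 and 36.7 (1.04). NORAD, formerly LINC00657, rose from 68.6 and 66.1 to 97.9 and 99.4 (0.55).

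Factors that process, degrade or retain lncRNAs in the nucleus were also listed. Of 25 gene entries tested 0 were higher (2 at an unadjusted limma p under 0.05) and 12 lower, with a median of -0.26. Over all genes tested 23.1% were higher and 22.2% lower. With equal sums 2 entries were higher and 4 lower, against 38.4% and 12.3% of all genes. Without shMock replicate 1 there were 5 lower, without shMock replicate 2 there were 8, and without shDUSP23 replicate 1 there were 2 higher and 8 lower. MATR3, a nuclear RNA-binding protein with 2 gene entries, went from 144 and 126 to 69.8 and 51.8 FPKM in the main entry (log2 fold change -1.16). Its 2 entries, both among the 12 lower, share sequence, so the division between them is uncertain and they are not separate falls. MTREX, the helicase that feeds nuclear RNA to the exosome, went from 27.7 and 25.4 to 14.7 and 13.1 (-0.91). DIS3, a catalytic exosome subunit, went from 18.0 and 17.6 to 9.25 and 9.41 (-0.90). The part of these changes in the LINC levels was not tested.

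The name intergenic was checked against GENCODE release 29. Of the 212 members, 141 lay over 5 kb from any protein-coding gene, 43 lay within 5 kb and 28 overlapped a coding gene, 16 of them on the same strand and 12 on the opposite strand. The 16 include LINC02693, which that release names C17orf51 and holds as a coding gene, so it was matched to itself. Of the 43 close ones 20 were divergent from the coding gene, 17 lay on the same strand and 6 were convergent. Among the tested members over 5 kb away 28 of 79 were higher and 4 lower, and among those nearer or overlapping 12 of 46 were higher and 3 lower, with medians of 0.42 and 0.12. For 91 members the nearest coding gene was tested as well, and the Spearman correlation of the 2 fold changes over these pairs was 0.14, a description over pairs from the same libraries. LINC02693 enters these pairs and the counts over all tested members as its own neighbour. The correlation without it was not computed. Of the 40 rising members the nearest coding gene was higher for 11, lower for 6, not called for 18 and not tested for 5. Over all 125 tested members it was higher for 25, lower for 16, not called for 50 and not tested for 34. Among all genes tested 23.1% were higher and 22.2% lower. Of the 7 falling members the nearest coding gene was lower for 2 and higher for 0 by limma's adjusted p.

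**Figure D5:**
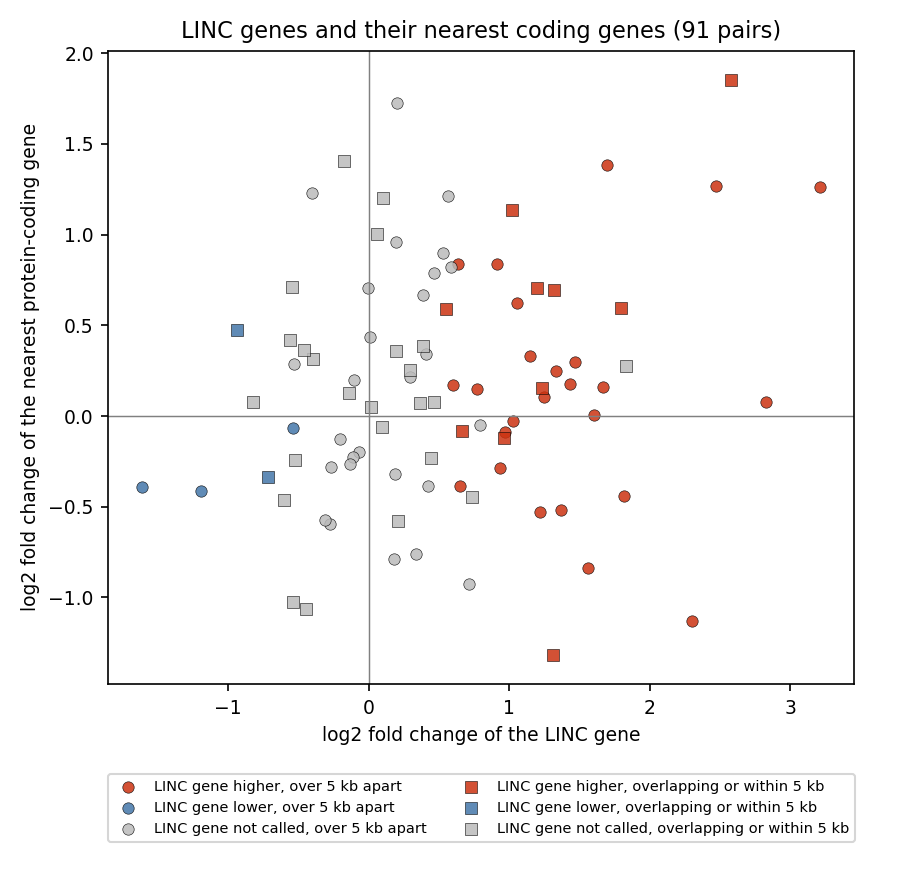
Log2 fold change of each tested LINC gene (horizontal axis) and of its nearest protein-coding gene (vertical axis) for 91 pairs, squares for pairs overlapping or within 5 kb. Rising LINC genes (red) have neighbours on both sides of 0, and the Spearman correlation over all pairs is 0.14. LINC02693 is plotted against itself, under its GENCODE name C17orf51.

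Both genes were higher in 2 overlapping pairs, LINC01006 with RNF32 (log2 fold change of RNF32 0.69) and LINC00863 with NUTM2D (1.02 and 1.13), whose reads may not be separable. Among pairs that do not overlap, the closest with both genes higher was LINC01136 and BTG2, an antiproliferative gene induced by p53. Their bodies start 182 bases apart on opposite strands, and the BTG2 window printed above covers the space between them, with 73.3% GC and a CCAAT box at position -76 from the BTG2 start. BTG2 had 7.25 and 6.76 FPKM in shMock and 26.3 and 26.9 in shDUSP23 (log2 fold change 1.85, SE 0.15, limma adjusted p = 7.4e-05). Other rising members lay next to rising genes at larger distances. SOX13, a transcription factor gene 31.9 kb from LINC00303, went from 14.9 and 14.3 to 33.4 and 38.4 FPKM (log2 fold change 1.26). FGGY, a carbohydrate kinase gene 56.1 kb from LINC01358, went from 2.42 and 3.24 to 7.53 and 8.75 (1.38). SWAP70, 1.78 kb from the convergent LINC02709, went from 16.1 and 13.2 to 22.5 and 22.0 (0.60), and was not called without shMock replicate 2 (0.46). BAALC, 7.74 kb from LINC01181, went from 0.20 and 0.71 to 2.16 and 1.35 (1.27), and was not called without shMock replicate 1 (0.87) or 2 (1.67).

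Other pairs moved apart. TMEM18, 62.1 kb from the rising LINC01115, fell from 27.0 and 27.4 to 12.3 and 12.0 FPKM (log2 fold change -1.13). LINC02340 rose from 0.45 and 0.51 to 2.13 and 1.74 FPKM (log2 fold change 1.31) while RPL21, a ribosomal protein gene that starts 21 bases away on the other strand, fell (-1.32). LINC02340 reached 1 FPKM through the shDUSP23 libraries alone and so had to differ. This pair was chosen after its values were seen, and LINC02340 was not called without shMock replicate 1 or 2. KTN1, 79.6 kb from LINC00520, did not differ beyond its spread, with 113 and 99.8 FPKM in shMock and 114 and 110 in shDUSP23. NTMT1, 95.2 kb from LINC00963, had 27.3 and 27.0 against 22.9 and 17.2 FPKM (log2 fold change -0.44, limma adjusted p = 0.054), and 0.11 on its most abundant transcript. Of the neighbours of falling members, SMOX, the spermine oxidase gene 5.32 kb from LINC01433, was lower (-0.39), as was XRCC5, which encodes Ku80 and lies 10.7 kb from LINC01963 (-0.42). With equal sums SMOX (-0.06) and XRCC5 (-0.08) were not called. SMOX was also not called without shMock replicate 1 (-0.35) or shDUSP23 replicate 1 (-0.29), nor XRCC5 without shMock replicate 2 (-0.38) or shDUSP23 replicate 2 (-0.41). FBLN1, PGRMC2 and MAP1LC3B2, next to LINC01589, LINC02615 and LINC00173, were not called (0.47, -0.34 and -0.06), and PGRMC2 turned to 0.15 with GC and length correction.

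Promoter windows could be matched to 112 members, by a RefSeq start within 500 bases of a listed transcript start. The AP-1 site TGANTCA, the binding sequence of the Fos and Jun family, was present in 5 of the 19 rising members with a window (26.3%), in 3 of 48 not called (6.25%), in 0 of 5 falling and in 3 of 40 not tested (7.5%). It was present in 7.71% of all 35116 promoters of the same length. LINC00513 had 2 matches, at -180 and -46 from the start. This window lies at the start of its less abundant transcript, LINC00513-203 (24.3% of the gene's level), and the main one, LINC00513-201, starts 59.7 kb upstream. The others had 1 each, at 19 in LINC00963, -49 in LINC00973, -86 in LINC01358 and -243 in LINC02709, where it overlaps a match to the NRF2-type core. Counted from the same RefSeq start, the listed LINC01358 transcript starts at -95, so its site lies within it. The most abundant LINC00963 transcript starts at 440. These counts are small, the motif was 1 of 8 searched, and a match is not a bound site. LINC00513, LINC01358 and LINC02709 also passed the filter through the shDUSP23 libraries alone and so had to differ. The other motifs were present in 1 to 6 of the 19 rising members, for example the E-box in 3 (15.8%, against 7.26% of all promoters) and the CCAAT box in 6 (31.6%, against 34.6%). The interferon-type core was present in 1 rising window, that of LINC01358. The windows of rising members had a median GC content of 57.7% and those of all promoters 58.7%.

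In structure the members resembled the other lncRNAs more than coding genes. With a GENCODE length for 184 of the 212, the median length was 1839 bases with 3 exons, against 1463 bases and 2 exons for other lncRNAs and 2704 bases and 8 exons for coding genes. The median level over all listed genes was 1.65 FPKM for LINC genes, 1.10 for other lncRNAs and 11.2 for coding genes. Across tested LINC genes the fold change had a Spearman correlation of 0.20 with GC content, -0.03 with length and 0.12 with mean level, and across all genes the value for GC content was 0.26. A polyadenylation hexamer (AATAAA or ATTAAA) lay in the last 50 bases of 98 of 165 LINC transcripts (59.4%), 1 per gene, compared with 58.7% for other lncRNAs and 52.3% for coding genes. Among rising members it was present in 18 of 36 (50%). After GC content and length were regressed out per library, 41 LINC genes were higher and 6 lower.

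The 87 members below the filter were too low for the main test. In 40 of them the shDUSP23 libraries both exceeded the controls and in 13 both lay below, against 33.2% and 20% of the 2680 genes under the filter. With no filter, 52 of the 212 members were higher (24.5%, against 19.4% of all genes) and 7 lower (3.3%, against 18.1%), and 39 of the 40 rises and 5 of the 7 falls kept their call. Examples, chosen after their values were seen, are LINC01970 (0.21 and 0.13 FPKM in shMock, 1.60 and 1.94 in shDUSP23), LINC02321 (0 and 0.06 against 2.16 and 0.81) and LINC02078 (0.14 and 0.15 against 1.49 and 1.41). LINC01119 went the other way, with 1.05 and 0.75 FPKM in shMock and a listed 0 in both shDUSP23 libraries, as did LINC02245, with 1.39 and 1.56 against 0.61 and 0. At these levels a value stands for few fragments, and a 0 shows only that none were assigned.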

How the data were processed

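Whole-table expression values of 4 RNA libraries, 2 shMock and 2 shDUSP23, were used. Per the labels, total RNA was extracted from A549 tumor cluster cells and libraries were made with an Illumina mRNA kit. The authors deposited FPKM per Ensembl transcript and library, and the submitters' processing notes name STAR 2.7.1a, DESeq2 1.32.0 and GRCh38. For the quantifier, the annotation, the strandedness and any filter, the tool or setting is not given in the sources used here.

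Transcript values were summed per gene ID. The test was limma 3.58.1 (two-sided, lmFit and eBayes with trend) on log2(FPKM + 0.5) of genes averaging 1 FPKM or more, in R 4.3.3, over all 4 libraries and without covariates. Calls used a Benjamini-Hochberg adjusted p under 0.05 over all 13691 genes tested. No test was run on the LINC genes as a set. Fragments were recovered from the steps of the deposited FPKM with lengths from GENCODE release 29. Of low values 99.9% to 100% were whole within 0.1 fragment, and 117 LINC genes had whole fragments in all libraries. Limma-voom on these fragments was an alternative only. The fit was tested on simulated data, where it recovered large changes and false calls exceeded the nominal rate. Pearson correlations of log2 values were 0.986 between the shMock and 0.969 between the shDUSP23 libraries.

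The members and gene lists were chosen with earlier results of these data known. Named were DUSP23, the 10 largest rises and up to 10 largest falls among called LINC genes without overlap and with 1 FPKM in the higher group, the 5 most abundant members, the tested members of the cancer list, the nearest coding genes of the largest changes, and the 4 smallest p of each other list. Tables and figures used Python 3.11.15, pandas 2.3.3, numpy 2.4.6 and matplotlib 3.10.9. Alternatives covered the pseudocount, the filter, the scaling, the variance model, the transcripts used, the block and each library left out. Added after the table was seen were the GC and length correction (spline with 5 degrees of freedom), alone and with the block, and a filter for genes above 0 in all 4 libraries.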

Additional observations from a re-analysis of the deposited data

How the results depend on the processing

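The count of 40 LINC genes higher and 7 lower, and their median log2 fold change of 0.29, were recomputed under 19 alternatives. More LINC genes were higher than lower in each of them. With a mean of at least 5 FPKM, 17 of 35 were higher and 2 lower (median 0.55), against 26.0% and 27.9% of all genes (median -0.02), and fewer genes entered the test. With equal sums 4 were lower (median 0.63), with quantile normalization the median was 0.19, and with limma-voom on recovered fragments it was 0.39. Using the most abundant transcript only gave 24 higher and 1 lower (median 0.47). With GC and length correction the median was 0.41, with or without the replicate block. Leaving out 1 library gave 24 to 42 higher, 0 to 13 lower and medians of 0.27 to 0.40. The cause of these shifts was not tested. With the replicate block 41 were higher and 8 lower. The numbers gave no sign of pairing (correlation of same-numbered deviations 0.05), and with 2 libraries per group the block says little.

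Some fold changes turned sign. On its most abundant transcript LINC01106, called lower in the main result, was 0.00072. With equal sums LINC02864 was 0.31, LINC02582 0.30, LINC00342 0.20, LINC00847 0.046, LINC00662 0.054 and MAP1LC3B2 0.17. With quantile normalization LINC02864 was 0.063 and LINC02582 0.042, and LINC02864 was 0.032 in limma-voom. On the most abundant transcript LINC02864 was 0.37, LINC02582 0.047, LINC00342 0.069 and NTMT1 0.11. With GC and length correction, alone or with the block, LINC02864 was 0.15, LINC02582 0.13, LINC00342 0.17, LINC00662 0.067, PGRMC2 0.15 and MAP1LC3B2 0.065. Leaving out 1 library gave -0.10 to 0.052 for LINC02864, -0.072 to 0.0093 for LINC02582, -0.00094 to 0.39 for LINC00472, -0.99 to 0.46 for LINC00847, -0.0093 to 0.17 for KTN1 and -0.84 to 0.72 for MAP1LC3B2. None of these reversed values was tested for its cause. A lone remaining library was assumed to vary like the other group. With 2 libraries per group and few fragments below 1 FPKM, small differences in low LINC genes could not be seen.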
